A study of Arabidopsis thaliana with 6 samples.

Results

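Callus is the mass of dividing cells that cut plant tissue forms on a medium with auxin and cytokinin. The genes described here are 10 activators, outputs and light-dependent regulators of the circadian clock of Arabidopsis thaliana: RVE1, RVE4, RVE6, RVE8, LNK1, LNK2, GRP7, GRP8, FKF1 and ZTL. They were chosen by locus identifier out of 36793 loci, all 10 were present, and all 10 passed the filter on low counts that left 18364 genes for testing. The choice was made with the day 7 and day 12 values of these libraries known, so the difference of each gene between the days is given as a description. No test was made of the 10 genes alone, and their calls are those of the test across all genes. The samples were callus of the Col-0 genotype grown from leaf explants of 2-week-old seedlings, collected on day 7 (3 libraries) or day 12 (3 libraries) of culture on callus-inducing medium. All 6 libraries share the genotype, the explant and the medium, and no uncultured leaf was analysed here. The hour of collection is not given in the sources used here. For genes with a daily rhythm, a difference in hour and a difference in level at the same hour therefore cannot be told apart.

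The plant clock is a loop of repressors and activators that gives many transcripts a daily rhythm. CCA1 and LHY, MYB-like factors of the morning, repress genes of the evening, and the pseudo-response regulators and the evening complex in turn repress the morning genes. RVE4, RVE6 and RVE8 are MYB-like relatives of CCA1 and LHY that activate evening genes through a promoter motif, the evening element, and LNK1 and LNK2 are the coactivators that they recruit. RVE1 belongs to the same family and is known for linking the clock to auxin synthesis. GRP7 and GRP8 are glycine-rich RNA-binding proteins whose transcripts peak in the evening, and each limits its own and the other's mRNA through alternative splicing. FKF1 and ZTL are blue-light receptors of the F-box type: with the clock protein GI, FKF1 marks CDF repressors of flowering for degradation, and ZTL does so for the clock proteins TOC1 and PRR5.

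The stretches from 250 bases before to 50 bases after the annotated gene start were read from the RefSeq genome TAIR10.1, the reference used for sequences here; the submitters name TAIR10. Those of GRP7, GRP8 and FKF1 are shown because they were the 3 of the 10 windows that held an evening element (AAAATATCT, or AGATATTTT on the other strand), and that of LNK1 because its change was the least variable and its window held none. Each runs 5′ to 3′ toward the gene, and capitals mark matches to the evening element or to the G-box (CACGTG), a motif of bHLH and bZIP factors.
GRP7, chr2:9266508-9266807 on the minus strand of TAIR10.1: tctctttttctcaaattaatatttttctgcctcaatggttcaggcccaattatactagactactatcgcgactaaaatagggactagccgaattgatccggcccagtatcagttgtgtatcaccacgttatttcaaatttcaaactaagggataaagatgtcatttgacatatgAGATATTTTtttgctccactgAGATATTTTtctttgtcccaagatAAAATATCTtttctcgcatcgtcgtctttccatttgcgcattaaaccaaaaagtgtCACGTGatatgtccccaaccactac
GRP8, chr4:18275167-18275466 on the minus strand of TAIR10.1: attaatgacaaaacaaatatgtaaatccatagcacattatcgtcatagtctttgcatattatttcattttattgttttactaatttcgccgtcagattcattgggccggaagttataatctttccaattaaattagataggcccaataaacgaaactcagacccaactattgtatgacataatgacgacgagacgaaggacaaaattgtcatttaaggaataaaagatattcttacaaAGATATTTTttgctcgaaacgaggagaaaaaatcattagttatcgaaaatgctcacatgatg
FKF1, chr1:25508389-25508688 on the plus strand of TAIR10.1: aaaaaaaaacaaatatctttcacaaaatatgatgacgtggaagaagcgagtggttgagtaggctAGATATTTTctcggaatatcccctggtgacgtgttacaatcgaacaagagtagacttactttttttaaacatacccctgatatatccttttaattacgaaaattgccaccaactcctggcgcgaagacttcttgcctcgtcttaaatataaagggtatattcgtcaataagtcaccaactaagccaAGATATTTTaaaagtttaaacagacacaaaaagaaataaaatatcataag
LNK1, chr5:25676774-25677073 on the minus strand of TAIR10.1: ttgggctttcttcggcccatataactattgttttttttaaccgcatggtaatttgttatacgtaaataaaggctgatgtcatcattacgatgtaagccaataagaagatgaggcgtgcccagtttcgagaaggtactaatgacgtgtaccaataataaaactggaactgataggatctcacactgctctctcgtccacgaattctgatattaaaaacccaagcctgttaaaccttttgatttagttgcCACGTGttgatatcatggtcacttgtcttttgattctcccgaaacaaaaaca

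GRP7 held 3 evening elements, starting 76, 55 and 31 bases before the gene start, and a G-box from base 26 of the transcript. GRP8 held 1 evening element, starting 12 bases before the start. FKF1 held 2, starting 186 bases before the start and at base 1. An evening element was present in 2.82% of the 27443 windows of nuclear protein-coding genes, in 3 of these 10 and in 5 of the 16 core clock genes. The G-box was present in 7.68% of all windows and in 5 of the 10, those of RVE1, RVE8, LNK1, LNK2 and GRP7. The CCA1-binding site AAAAATCT (7.88% of windows) was found in RVE6 alone, and the LUX-binding site GATACG (5.54%) in RVE4 and LNK2. Its second form GATTCG (9.58%) was in 0 of the 10. ZTL held none of the 5 motif forms searched on both strands, none of which overlaps another in the 10 windows. In the 1000 bases before the start the evening element was again present in GRP7, GRP8 and FKF1 alone of the 10, against 7.24% of all genes. The G-box was present there in 2 of the 10 against 14.8% of all genes, the CCA1-binding site in 2 against 21.1%, and the LUX-binding site in 3 against 16.9% for the first form and in 2 against 28.2% for the second. Matches are descriptions of sequence and were not tested as binding sites.

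**Figure D1:**
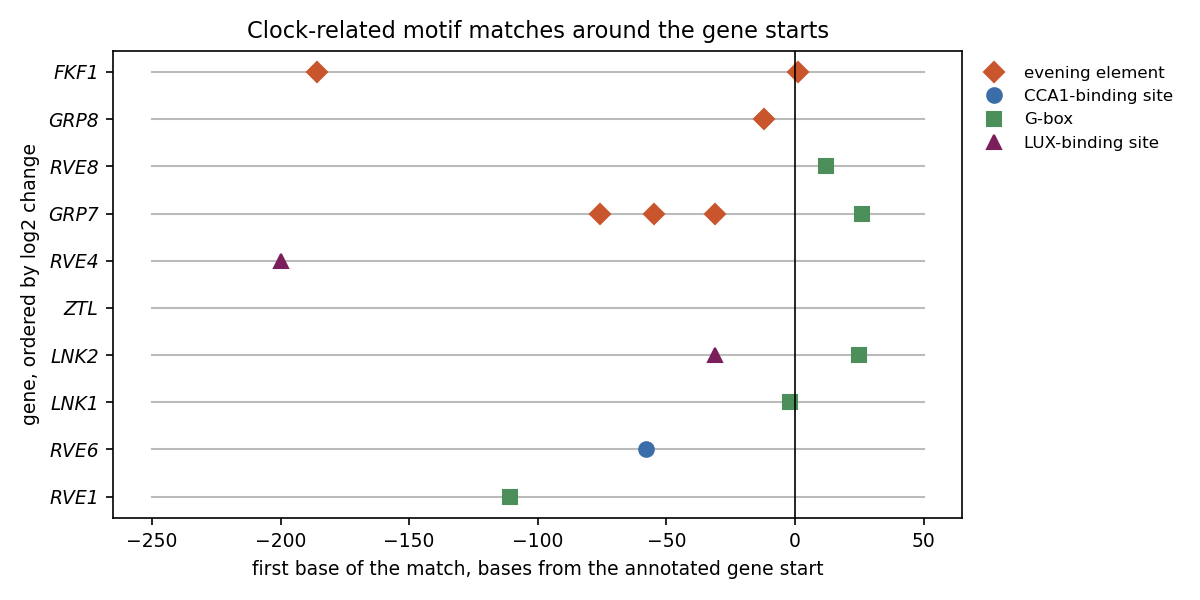
Position of each motif match in the window from 250 bases before to 50 bases after the annotated gene start of the 10 genes. The horizontal axis is the first base of the match in bases from the start, and genes are ordered from bottom to top by fitted log2 change. Evening elements (diamonds) lie in the rows of FKF1, GRP8 and GRP7, and the row of ZTL is empty.

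Total counts ranged from 4927953 (day 12 replicate 3) to 10746277 (day 7 replicate 2). Ribosomal RNA loci held 0.121% to 3.90% of the counts of a library but 1.67% to 30.7% of its TPM (a transcript level per length, scaled to 1 total in each library). Changes are therefore given on TMM-scaled CPM (counts per library total, put on 1 scale) and TPM is used for levels between genes. Regulators of callus and root-meristem identity were present (9 of 9 detected; summed CPM 399 to 417 on day 7 and 496 to 540 on day 12), but their members differed. Of the 7 tested, WOX11 was called higher (40.3 ± 11.1 and 131 ± 68.5 CPM, edgeR adjusted p = 0.0465) and LBD16 lower (25.7 ± 6.40 and 14.5 ± 3.36 CPM, edgeR adjusted p = 0.0297), and the median log2 change was -0.25. LBD29, too low to test, had 24, 20 and 7 counts on day 7 and 3, 1 and 0 on day 12; these 3 genes were named after their values were seen. Markers of leaf mesophyll summed to 117 to 196 CPM on day 7 and 52.9 to 75.2 on day 12. Those of shoot epidermis and stomata summed to 361 to 681 and 201 to 297. Endodermis markers summed to 5.42 to 15.1 and 46.8 to 65.5, and phloem and xylem markers to 115 to 206 and 90.6 to 180. No list had a marker at 0 in all libraries. CASP1, a defining gene of the Casparian strip, was at 0 counts in the 3 day 7 libraries and at 16, 8 and 16 in the 3 of day 12. The part of these shifts in the clock values was not tested, and in bulk callus fewer cells of a type and less RNA per cell cannot be told apart.

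In the test across all genes (edgeR's quasi-likelihood test, Benjamini-Hochberg adjusted p of 0.05), 7 of the 10 genes were called higher on day 12 and 0 lower, where 12.7% of all tested genes were called higher and 12.5% lower (25.1% in either direction). The 7 were RVE4, RVE8, LNK1, GRP7, GRP8, FKF1 and ZTL. Nothing is read from this count, since the genes were picked with this contrast known. The median fitted log2 change of the 10 was 0.58, against 0.00 for all tested genes (-0.00153 before rounding). The 3 day 12 libraries lay above the 3 day 7 libraries for 8 of the 10, all but RVE1 and LNK2, and for 21.2% of all tested genes; they lay below for 0 of the 10 and for 22.5% of all. With day 7 replicate 1 or day 7 replicate 2 left out the count was 4, and with day 12 replicate 1 or 2 left out it was 5. A block for the replicate number gave 8, the added gene being LNK2. On leaving out 1 library, RVE8 and ZTL were not called without day 7 replicate 1 or 2 or day 12 replicate 1 or 2, and GRP7 was not called without any 1 day 7 library or day 12 replicate 3.

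**Figure D2:**
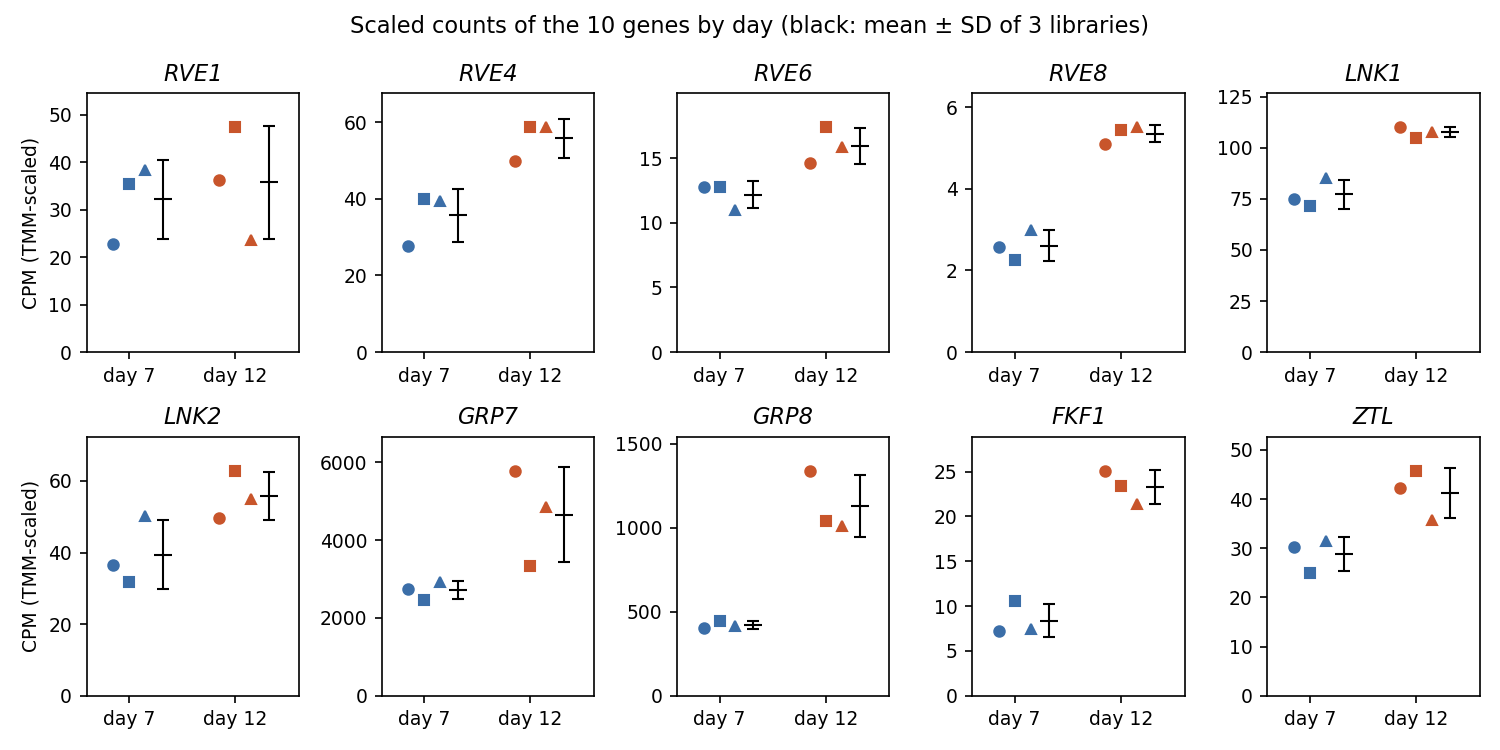
TMM-scaled CPM of the 10 genes on day 7 (blue) and day 12 (orange), 1 panel a gene, each vertical axis starting at 0. Circles, squares and triangles are replicates 1, 2 and 3, and black marks are the mean ± SD of 3 libraries. The days do not overlap for GRP8 (405 to 446 against 1010 to 1340 CPM), while the 2 days of RVE1 share most of their range.

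The activators RVE4, RVE6 and RVE8 all stood higher on day 12, though RVE6 was not called in the test across all genes. RVE8 (AT3G09600, chr3:2946239-2949017), a main activator of evening genes, was at 2.58, 2.25 and 2.99 CPM in day 7 replicates 1, 2 and 3 and at 5.10, 5.45 and 5.51 CPM in day 12 replicates 1, 2 and 3. The groups did not overlap. By TPM the gene was at 1.59 to 2.33 on day 7 and at 3.09 to 4.81 on day 12. RVE8 was not called on log2(TPM + 1) (limma adjusted p = 0.187). Its fitted log2 change was 1.04 ± 0.27 (SE), a 2.05-fold difference, from 19 to 57 counts a library, the lowest depth of the 10 genes.

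RVE4 (AT5G02840, chr5:648648-651979) was at 27.6, 39.9 and 39.5 CPM on day 7 and at 49.9, 58.7 and 58.7 CPM on day 12. Day 7 replicate 1 was the lowest library, and the groups did not overlap. The log2 change was 0.64 ± 0.15, and 0.48 without day 7 replicate 1.

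RVE6 (AT5G52660, chr5:21359001-21362273) was at 12.8, 12.8 and 11.0 CPM on day 7 and at 14.6, 17.4 and 15.9 CPM on day 12. Its days were separate by a narrow margin, with a log2 change of 0.39 ± 0.15. RVE1 (AT5G17300, chr5:5690225-5692992) was at 22.7, 35.4 and 38.4 CPM on day 7 and at 36.2, 47.4 and 23.7 CPM on day 12. Replicate 1 of day 7 and replicate 3 of day 12 were its low libraries, and the days overlapped. Its log2 change of 0.17 ± 0.28 turned to -0.03 without day 7 replicate 1 and to -0.08 without day 12 replicate 2.

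The coactivator gene LNK1 (AT5G64170, chr5:25672466-25676823) was at 74.8, 71.7 and 85.2 CPM on day 7 and at 110.1, 105 and 108 CPM on day 12. The day 12 libraries were nearly level, and all lay above day 7. The log2 change was 0.48 ± 0.09, the smallest standard error of the 10. LNK2 (AT3G54500, chr3:20175370-20179070) was at 36.5, 31.7 and 50.1 CPM on day 7 and at 49.7, 62.9 and 54.8 CPM on day 12. Day 7 replicate 3 exceeded day 12 replicate 1, so the days overlapped, and the log2 change was 0.50 ± 0.17 (0.71 without day 7 replicate 3 and 0.36 without day 7 replicate 2).

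GRP7 (AT2G21660, chr2:9265084-9266557) was among the most abundant transcripts of the callus, between the 3rd and the 5th of 27444 nuclear protein-coding loci by TPM in each library. It was at 2755, 2471 and 2912 CPM on day 7 and at 5782, 3340 and 4844 CPM on day 12. The day 12 libraries were all higher, and they spread over a wider range (SD 1232 against 224). The log2 change was 0.78 ± 0.19.

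GRP8 (AT4G39260, chr4:18273829-18275216) was at 405, 446 and 412 CPM on day 7 and at 1340, 1038 and 1010 CPM on day 12. Each day 12 library was more than 2 times the highest day 7 library. The log2 change was 1.42 ± 0.12, a 2.68-fold difference, and by TPM the gene moved from rank 207 to 248 on day 7 to rank 33 to 71 on day 12. Fitted on log2(TPM + 1) its change was smaller, 1.08 ± 0.22, and 1.05 ± 0.13 without rRNA and organelle loci. Within a library, the TPM ratio of GRP8 to GRP7 was 0.167, 0.194 and 0.152 on day 7 and 0.214, 0.295 and 0.185 on day 12. These ratios overlapped between the days (0.171 ± 0.0214 and 0.232 ± 0.0573, SD, n = 3), with replicate 2 the highest on both. The same ratio taken on counts did not overlap. None of the 50-base stretches of the transcripts of either gene occurs elsewhere in the reference genome, so reads of that length without errors would separate the pair.

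FKF1 (AT1G68050, chr1:25508639-25510907) was at 7.21, 10.5 and 7.41 CPM on day 7 and at 25.1, 23.4 and 21.4 CPM on day 12. The day 12 libraries were all higher, with day 7 replicate 2 the nearest to them. The log2 change was 1.47 ± 0.18, a 2.77-fold difference and the highest of the 10. ZTL (AT5G57360, chr5:23241320-23244590), its close relative, was at 30.3, 24.97 and 31.4 CPM on day 7 and at 42.3, 45.8 and 35.8 CPM on day 12, with no overlap and a log2 change of 0.52 ± 0.13. The TPM ratio of FKF1 to ZTL was 0.259, 0.485 and 0.271 on day 7 and 0.670, 0.579 and 0.705 on day 12. This ratio did not overlap between the days (0.338 ± 0.127 and 0.652 ± 0.0648), with day 7 replicate 2 the nearest to day 12.

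**Figure D3:**
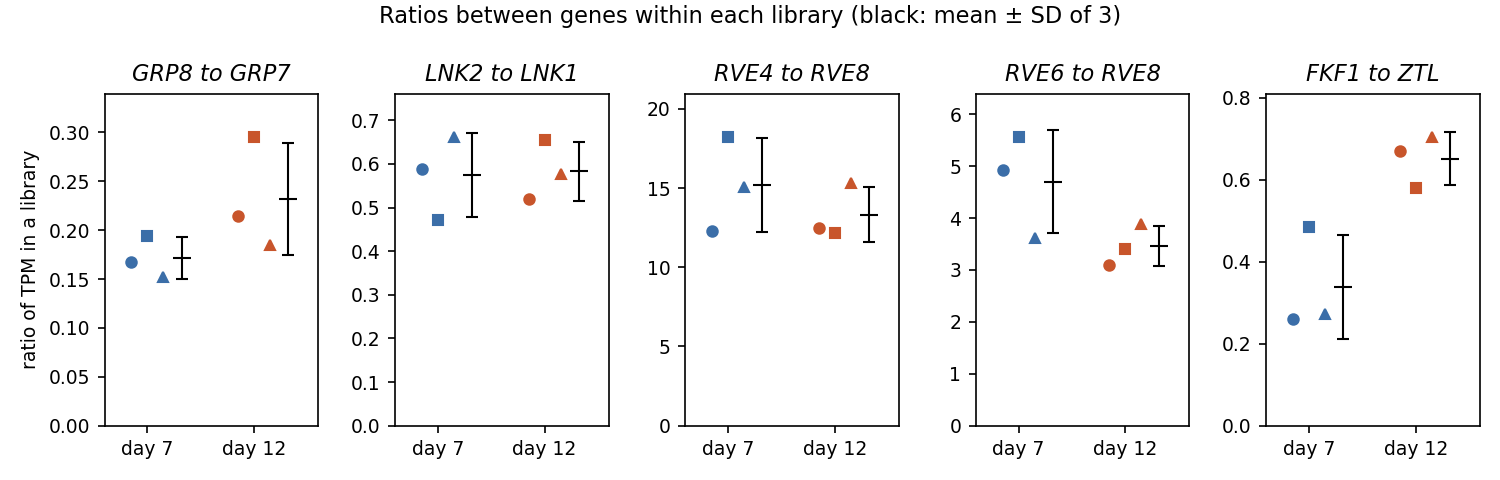
Ratio of TPM between pairs of the 10 genes within each library, day 7 in blue and day 12 in orange, with circles, squares and triangles for replicates 1, 2 and 3 and black marks for the mean ± SD of 3 libraries. Each vertical axis starts at 0. By TPM, the ratio of FKF1 to ZTL is the pair with no overlap between the days. The ratio of LNK2 to LNK1 has means of 0.574 and 0.584.

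On TPM the other ratios overlapped between the days, while on counts those of GRP8 to GRP7 and of RVE6 to RVE8 did not. By TPM, LNK2 to LNK1 was 0.574 ± 0.0967 on day 7 and 0.584 ± 0.0675 on day 12 (SD, n = 3). RVE4 to RVE8 was 15.2 ± 2.97 and 13.3 ± 1.75, and RVE6 to RVE8 was 4.70 ± 0.994 and 3.46 ± 0.392. A ratio within a library does not depend on the scaling between libraries.

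By mean TPM over the 6 libraries the order of levels was GRP7 (3973 TPM), GRP8 (816), LNK1 (43.3), RVE4 (41.8), LNK2 (25.1), RVE1 (22.9), ZTL (18.5), RVE6 (11.6), FKF1 (9.68) and RVE8 (3.01). GRP7 exceeded GRP8, and GRP8 exceeded LNK1, in 6 of 6 libraries. LNK1 and RVE4 changed places between libraries, LNK1 being higher in 3 of 6, and RVE1 exceeded ZTL in 4 of 6. The activator with the least transcript was RVE8, at 1.59 to 4.81 TPM, below FKF1 in 6 of 6 libraries.

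**Figure D4:**
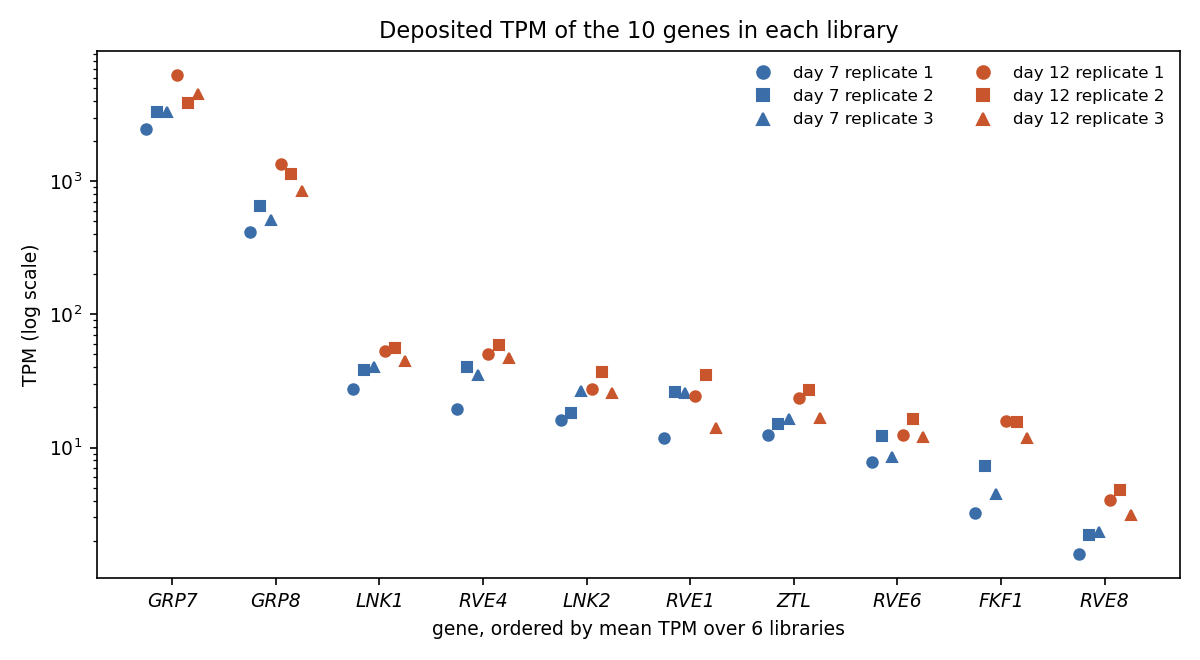
Deposited TPM of the 10 genes in each of the 6 libraries on a log scale, ordered by mean. Blue symbols are day 7 and orange symbols day 12, with circles, squares and triangles for replicates 1, 2 and 3. GRP7 and GRP8 stand above 400 TPM in each library, and the other 8 genes below 60.

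Of the other family members, RVE7, a MYB-like gene of the morning, rose from 17.0 ± 2.86 to 33.8 ± 3.41 CPM (log2 change 0.99 ± 0.15, edgeR adjusted p = 0.0032). RVE2 was at 24.0 ± 3.38 and 29.0 ± 7.14 CPM (edgeR adjusted p = 0.339). Neither LNK3 (14.3 ± 2.50 and 18.4 ± 3.34 CPM, edgeR adjusted p = 0.181) nor LNK4 (5.58 ± 0.781 and 8.41 ± 1.98 CPM, edgeR adjusted p = 0.0976) passed. LNK3 and LNK4 had log2 changes of 0.36 ± 0.19 and 0.60 ± 0.24.

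Among the 16 core clock genes 11 were called higher and 0 lower, where 12.7% and 12.5% of all tested genes were. This list and those below were chosen with earlier results of these data known, so nothing is read from their counts. Their median log2 change was 0.58, the same to 2 decimals as that of the 10 genes. The 3 day 12 libraries lay above the 3 of day 7 for 11 of the 16 and below for 1. For all tested genes these shares were 21.2% and 22.5%. TOC1, a repressor of the evening, rose from 130 ± 16.6 to 211 ± 5.99 CPM (log2 change 0.69 ± 0.11, edgeR adjusted p = 0.00331). GI, the partner of FKF1 and ZTL, rose by 0.70 ± 0.10 (edgeR adjusted p = 0.00287), PRR7 by 1.11 ± 0.11 (0.00143), PRR5 by 0.87 ± 0.15 (0.00501), ELF4 by 0.77 ± 0.14 (0.00691) and TIC by 0.59 ± 0.09 (0.00298). The morning genes differed from each other: CCA1 rose from 14.8 ± 3.13 to 22.3 ± 2.72 CPM (log2 change 0.59 ± 0.18, edgeR adjusted p = 0.0381), and LHY was at 10.4 ± 4.01 and 10.7 ± 0.705 CPM (0.05 ± 0.26, edgeR adjusted p = 0.910). The call of CCA1 was lost without day 7 replicate 1 or 2 or day 12 replicate 2 or 3 (edgeR adjusted p from 0.0773 to 0.122). LUX, of the evening complex, rose by 0.28 ± 0.09 at the edge of the threshold (edgeR adjusted p = 0.0499). Its call was lost without any 1 of the 6 libraries (0.0692 to 0.150) and with the replicate block (0.0608). Of the genes that peak in the morning, CCA1 and RVE7 were called higher on day 12 and LHY was not. RVE1 and RVE2, of the same family as RVE7, were not called either. Among genes that peak in the evening, TOC1, GI, ELF4, GRP7 and GRP8 were called higher on day 12. Both groups are selections, and a difference between morning and evening genes was not tested. RVE4, RVE8, LNK1 and PRR7, placed in neither group here, were called higher too. BOA, of the core clock list and named after its values were seen, was not called (0.06 ± 0.19, edgeR adjusted p = 0.847).

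**Figure D5:**
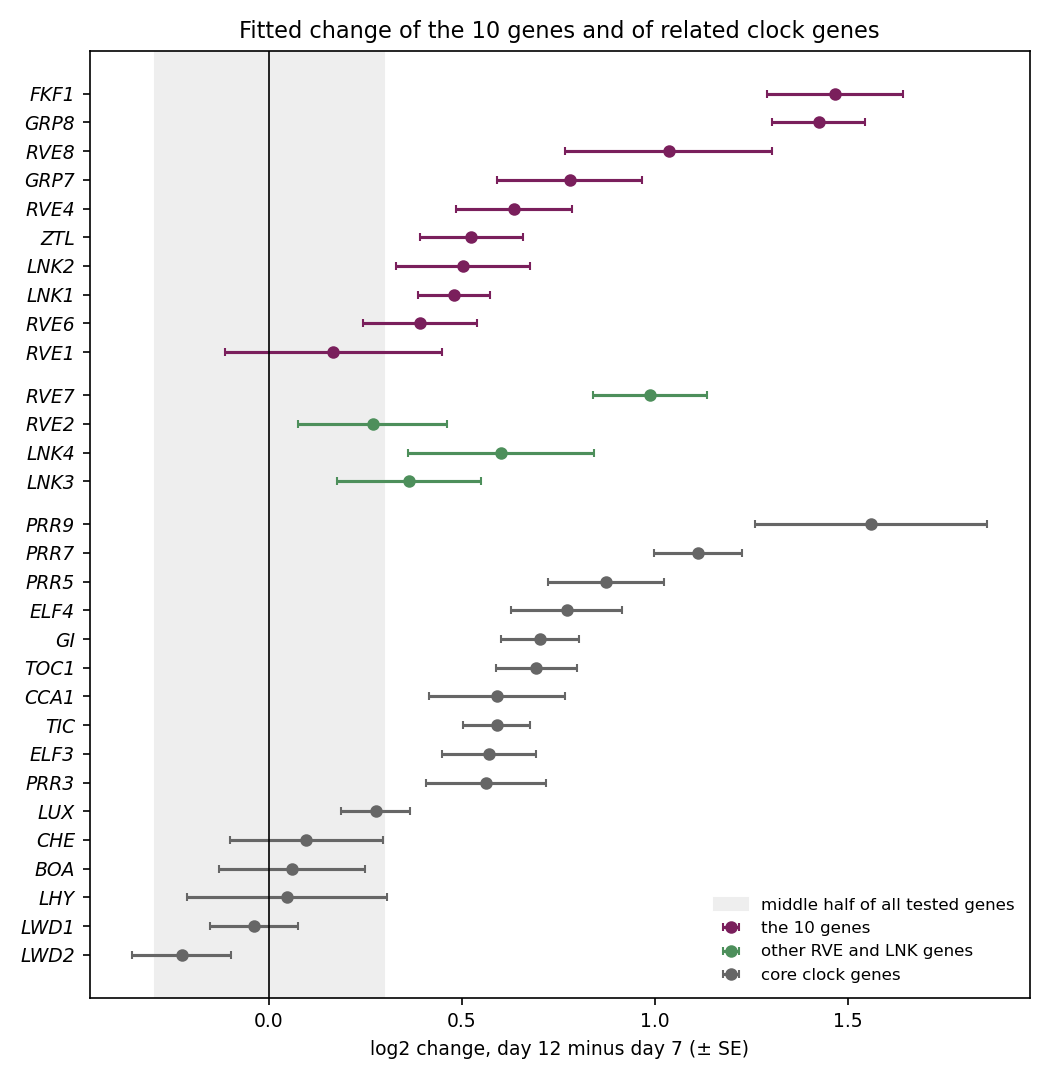
Fitted log2 change, day 12 minus day 7, with its standard error, for the 10 genes (purple), the other RVE and LNK genes (green) and the core clock genes (grey). The shaded band spans the quartiles of all tested genes, -0.29 to 0.30. RVE1 is the only one of the 10 whose point lies inside the band.

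Of 8 tested partners and targets of FKF1 and ZTL, 3 were called higher and 1 lower, where 12.7% and 12.5% of all tested genes were. The median log2 change of this list was 0.28. LKP2, the third F-box protein of the family, rose by 0.54 ± 0.13 (edgeR adjusted p = 0.0160), and its call was lost without day 7 replicate 1 or 2 (0.0616 to 0.0623). CDF2, a target of FKF1, rose from 17.8 ± 3.99 to 33.8 ± 5.18 CPM (0.92 ± 0.18, edgeR adjusted p = 0.00835). CDF3 rose by 1.18 ± 0.32 (edgeR adjusted p = 0.0280; 0.0528 to 0.0777 without day 7 replicate 2 or 3 or day 12 replicate 2 or 3). CDF1 was at 2.21 ± 0.305 and 2.98 ± 0.754 CPM (edgeR adjusted p = 0.441). ASK1, the SKP1-like adaptor that joins F-box proteins to the ligase, fell by 0.31 ± 0.09 (edgeR adjusted p = 0.0330), and its call was lost without any of the libraries but day 12 replicate 2 (0.0505 to 0.0904). The count of called genes in this list fell to 1 with day 7 replicate 2 left out and to 2 when day 7 replicate 1, day 7 replicate 3 or day 12 replicate 3 was dropped. The flowering genes CO and FT, downstream of the CDF repressors and named here after their values were seen, were too low to test, with 3 to 8 and 3 to 7 counts a library.

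Among the other glycine-rich RNA-binding proteins 3 of 7 tested genes were called lower and 0 higher, where 12.5% and 12.7% of all tested genes were. The median log2 change of this list was -0.33. GRP3 fell from 91.1 ± 5.18 to 61.9 ± 11.5 CPM (log2 change -0.56 ± 0.13, edgeR adjusted p = 0.0167), GRP4 from 230 ± 19.8 to 153 ± 29.7 CPM (edgeR adjusted p = 0.0199) and GRP6 from 28.9 ± 1.89 to 19.2 ± 3.58 CPM (edgeR adjusted p = 0.0226). Several of this group are known to act on RNA in mitochondria. Leaving out day 7 replicate 1 gave edgeR adjusted p = 0.0588 for GRP3, leaving out day 7 replicate 3 gave 0.0683 for GRP4, and either gave 0.0666 to 0.0700 for GRP6, so that 1 of the list was then called. Without day 12 replicate 1 the count was 4. RZ-1A, named after its values were seen, was listed at 0 counts in all 6 libraries but at a mean of 12.0 TPM on day 7 and 12.1 on day 12, 1 of 142 loci with 0 counts and a mean of at least 1 TPM. The 2 tables therefore did not assign reads alike.

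The counts for 3 further lists of clock outputs stand beside 25.1% of all tested genes called in either direction. In the cold response list, some of whose genes RVE4 and RVE8 can activate, 1 of 6 tested genes was called lower and 0 higher. The median of the list was -0.24. ERD10, a dehydrin gene, fell by 0.86 ± 0.16 (edgeR adjusted p = 0.00714). The block called 3 of the list, 1 higher and 2 lower, and leaving out day 7 replicate 2 or day 12 replicate 3 called 2. COR27, a small regulator of the clock, was at 6.97 ± 2.73 and 12.5 ± 0.845 CPM (edgeR adjusted p = 0.0545; 0.0239 with the replicate block and 0.0309 without day 7 replicate 2). Of 3 tested anthocyanin synthesis genes none was called (edgeR, lowest unadjusted p = 0.444, so 0 under 0.05; DESeq2 also called 0), with a median of -0.15. Of 7 tested other outputs of the daily rhythm 2 were called higher and 0 lower, with a median of 0.13. COL9 rose by 0.52 ± 0.13 (edgeR adjusted p = 0.0201; 0.0608 to 0.0746 without day 7 replicate 1 or 2 or day 12 replicate 1). The catalase gene CAT3 rose by 1.12 ± 0.29 (edgeR adjusted p = 0.0381; 0.0793 to 0.124 without day 7 replicate 2 or 3 or day 12 replicate 2 or 3, and 0.136 with the block). Without day 7 replicate 2 neither was called.

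The genes whose profile over the 6 libraries was most like that of each of the 10 were found by the root mean square difference of centred log2 CPM, among 13184 other genes with a mean of at least 10 CPM. For RVE8 the nearest was its relative RVE7, at a difference of 0.07, followed by ABCC3 (0.07) and AT1G21920 (0.08). For GRP8 they were AT4G29700 (0.10), JMJD5 (0.12), which encodes a jumonji-domain protein with a daily rhythm, and ABCC12 (0.13). For FKF1 they were MYB92 (0.13), AT4G29700 (0.14) and AT4G29270 (0.16), for LNK1 BIM3 (0.03), AT5G12100 (0.03) and AT3G26000 (0.03), and for GRP7 GTB1 (0.08), SDG2 (0.09) and AT3G07030 (0.10). For RVE4 they were MYB70 (0.04), MIPS2 (0.05) and UBC28 (0.06), for LNK2 AT4G16447 (0.06), AT3G51500 (0.07) and PLPB (0.07), and for ZTL DG1 (0.04), AT1G54290 (0.04) and PAH1 (0.06). For RVE6 they were AT4G17616 (0.05), AT5G62620 (0.05) and AT5G65240 (0.05), and for RVE1 AT2G14247 (0.09), AT5G26200 (0.10) and AT4G10270 (0.11). Among the 10 themselves the closest profiles were those of LNK1 and ZTL (0.13) and of GRP8 and FKF1 (0.15), and the farthest those of RVE1 and FKF1 (0.75).

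The annotated span of 4 of the 10 genes overlaps another gene on the opposite strand, which matters because the strand setting of the counts is not given in the sources used here. RVE1 shares 225 bases with AT5G17305, LNK2 shares 266 with a long non-coding RNA locus (AT3G08405) and 93 with AT3G54490, LNK1 shares 245 with AT5G64160 and FKF1 shares 21 with AT1G68060. AT5G17305 and AT3G08405 had 0 counts and 0 TPM in each library and AT3G54490 at most 8 counts. AT5G64160 had 134 to 352 counts, so reads of LNK1 from the shared end cannot be told apart from reads of that neighbour. AT1G68060 had 342 to 1067 counts, more than the 53 to 246 counts of FKF1, and the same holds for the 21 bases that those genes share. In FKF1 0.849% of the 50-base stretches of the transcript occur elsewhere in the reference genome, and in the other 9 genes none did.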

How the data were processed

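Bulk RNA-seq of 6 callus libraries was analysed, each made from 1 µg total RNA by TruSeq chemistry according to the labels' protocols. The authors deposited counts per locus (whole numbers, not normalized) and TPM values with the same total in each library. The submitters' processing notes name the tools STAR 2.7.10a and RSEM 1.3.1 and the build TAIR10. Which tool made which table, and whether strand was used, is not given in the sources used here. All columns matched a sample (0 unmatched).

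For the counts, edgeR 4.0.16 was used in R 4.3.3 (filterByExpr, TMM, robust quasi-likelihood fit, day as the only term, Benjamini-Hochberg adjusted p of 0.05 over 18364 genes). The fit was tested on simulated data with few changed genes, where false calls exceeded the nominal share and most of the smallest changes were missed. Log2 changes are day 12 minus day 7. Each SE was derived as the size of the log2 change over the square root of F. CPM are TMM-scaled, with mean ± SD of 3 libraries, and 3 counts stand for 0.269 to 0.635 CPM. The series calls the replicates biological and gives no plant or plate for them, so p-values measure the spread between these libraries. Counting noise was exceeded in each pair of libraries of 1 day (chi-square per degree of freedom 9.97 to 41.5). Same-numbered libraries deviated together (r across genes of 0.151, 0.156 and 0.244), so a replicate block was fitted as an alternative. The main model holds no pairing, and SE and p-values come from it unless another setting is named.

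The genes and lists were chosen with earlier results of these data known. The text names the 10 genes, at most 4 genes with the lowest adjusted p of each list, a set of clock genes, and the 3 nearest profiles per gene. Of 106 list genes 5 were left out because the reference table (TAIR10.1) does not carry their name. Protein sequences were not analysed here. DESeq2 1.42.0, limma 3.58.1 (voom, and log2(TPM + 1) or log2(TPM + 0.1)), other scalings and filters, removal of rRNA and organelle loci, the block and the loss of each library were tried.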

Additional observations from a re-analysis of the deposited data

How the results depend on the processing

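The 10 genes kept a positive log2 change under all 19 alternatives except RVE1, which ranged from -0.082 (without day 12 replicate 2) to 0.38 (without day 12 replicate 3) and was -0.03 without day 7 replicate 1. LHY was -0.14, -0.06 and -0.01 without day 7 replicate 1, day 7 replicate 2 and day 12 replicate 2, and 0.40 without day 7 replicate 3. Leaving out 1 library gave 4 to 7 called of the 10 genes, 14 to 19 of the related genes (22 with all libraries) and 2529 to 4342 of all tested genes (4616 with all libraries). On log2(TPM + 1), log2(TPM + 0.1) and log2(TPM + 1) with no TPM filter, 4, 4 and 2 of the 10 genes, 12, 13 and 4 related genes and 2090, 2069 and 693 of all genes were called, and of the 16 core clock genes 6, 7 and 2; after TPM was rescaled without rRNA and organelle loci, 6, 22 and 3875 were. The cause was not tested. With the replicate block 8 of the 10, 22 related genes and 5167 of all genes were called. Of the 10 genes and the related genes followed by name, only LNK2, LUX, COR27 and CAT3 changed their call. The calls of WOX11, LBD16 and BOA are not given for the other settings. With library sizes alone 1930 genes were called higher and 2704 lower, against 2324 and 2292 with TMM factors. The log2 difference between the days in each TPM ratio moved by less than its SD when counts replaced TPM or a library was left out, though that of LNK2 to LNK1 (0.03) was -0.10 without day 7 replicate 2 and -0.05 without day 12 replicate 2. DESeq2 called 8 of the 10 and limma-voom 7. Among the tested genes named, depth was lowest for CDF1 and RVE8, with 14 to 29 and 19 to 57 counts a library.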

Other observations

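Genes that held the evening element near their start were called higher more often than lower. Leaving out the 10 genes, 526 tested genes had a match in the window, of which 18.1% were called higher on day 12 and 10.5% lower, with a median log2 change of 0.06. The shares over all 17783 tested protein-coding genes with a window were 12.6% and 12.8%, with a median of -0.01. Of 20 genes with at least 2 matches 4 were called higher and 0 lower, with a median of 0.39. The corresponding shares were 12.3% and 11.9% for the CCA1-binding site, 13.6% and 12.7% for the G-box, 12.9% and 13.5% for the LUX-binding site and 11.6% and 15% for its second form. These counts were added after the values were seen, they include core clock genes, and no test was made of them.

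Some related genes had all or most of their counts on 1 day or in 1 library, chosen here after their values were seen. PAP1, a MYB activator of anthocyanin synthesis, had 4, 4 and 3 counts in day 7 replicates 1, 2 and 3 and 0 in each day 12 library, and the pigment enzyme gene DFR had 4, 2 and 5 against 0. The cold regulators CBF1 and CBF2 had 32 and 71 counts in day 7 replicate 2 and at most 2 and 19 in any other library.

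The library that stood highest on day 12 differed among the 10 genes. It was replicate 1 for GRP7, GRP8, FKF1 and LNK1, replicate 3 for RVE8 and replicate 2 for the other genes, in RVE4 by a margin over replicate 3 that vanishes on rounding. Replicate 3 was the lowest on day 12 for RVE1, ZTL, GRP8 and FKF1.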
